A study of Mus musculus with 8 samples.

Results

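The secretory-stage enamel matrix genes are the genes for the proteins that ameloblasts, the enamel-forming epithelial cells, release while the enamel layer is being laid down. They were *Amelx* (amelogenin), *Ambn* (ameloblastin), *Enam* (enamelin) and *Mmp20* (enamelysin), and were picked by name from the table of expression values. All 4 of the 4 names were found, each on a single row, among 23358 gene rows. All 4 passed the filter on low values described below.

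Amelogenin is the bulk of the young enamel matrix, and ameloblastin and enamelin are the less abundant structural proteins that are needed for a full enamel layer to form. Enamelysin is the matrix metalloproteinase that cuts these proteins while they are being deposited. When the layer has reached its full thickness, ameloblasts turn to the maturation stage, in which the protease kallikrein 4 (*Klk4*) clears what is left of the matrix and amelotin (*Amtn*) and *Odam* are laid down at the cell surface. The mouse incisor grows throughout life, so that stem cells, secretory ameloblasts and maturation ameloblasts lie one after another along the same tooth.

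RNA-seq was made from the cervical loop (CL), where the incisor grows, of C57BL/6 mice aged 4 weeks. Tissue was separated into the head (CLH), named by the study for its dental epithelial stem cells, and the tail (CLT), named for their progenies, and each was taken from control mice (Ctrl) and from *Med1* conditional knockout mice (*Med1* cKO). The *Med1* cKO mice carried floxed *Med1* alleles, from which Cre recombinase driven by the *Krt14* promoter removes exons 8 to 10 in epithelial cells that have used this promoter. By this design *Med1* should stay in place in mesenchyme, muscle and blood cells, which was not measured here. The Ctrl mice were littermates that lacked *Cre*, and the sexes were not kept apart. The CL tissues of 3 mice were pooled per group and litter, and 2 litters were used. Each of the 4 groups (Ctrl CLH, *Med1* cKO CLH, Ctrl CLT and *Med1* cKO CLT) had 2 libraries. Levels are given as RPKM, in which the reads of a gene are divided by its length and by the size of the library, so that genes of different length can be compared.

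Library totals recovered from the RPKM steps were between 26591615 and 34420183 reads. *Med1* itself, read as a check of the labels, was at 7.71 and 9.12 RPKM in Ctrl CLH against 7.10 and 7.03 after knockout. In CLT its values were 4.83 and 8.71 RPKM for Ctrl mice against 9.15 and 8.96 for *Med1* cKO mice. It was not called in either tissue (limma adjusted p = 0.71 in CLH and 0.36 in CLT), and its gene total also counts the exons that are not deleted. The group names below are therefore those of the labels. The tissue is labelled as dental epithelial cells, but the marker of odontoblasts *Dspp* was at 423 to 654 RPKM in all CLH libraries and in both Ctrl CLT libraries, so other cells of the tooth were present. Ctrl CLT replicate 1 stood apart from Ctrl CLT replicate 2. Of the genes compared, 36.4% differed by more than 1.5 times between these 2 libraries, against 1.37% to 1.80% between the libraries of the other groups. Ctrl CLT replicate 1 held the summed RPKM of 5 hair keratins at 2693, compared with 9.80 in Ctrl CLT replicate 2 and 7897 and 8679 in *Med1* cKO CLT. Epidermis, melanocyte and skeletal muscle genes in this library were likewise at 32.5% to 36.4% of their sums in the *Med1* cKO CLT libraries. The log2 changes of the members and of the gene lists in CLT are therefore also given from fits without it. Such a fit holds 1 Ctrl CLT library, and its spread comes only from the 2 libraries of the other group.

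*Ambn* and *Enam* lie side by side on chromosome 5, where *Ambn* spans chr5:88456011-88468529 and *Enam* spans chr5:88487975-88506049 in the build of the table (mm10). In the GENCODE M21 annotation both are on the plus strand and 19445 bases apart in the table, with *Amtn* as the next gene before *Ambn*. *Mmp20* spans chr9:7628231-7674968 on the plus strand in a row of other matrix metalloproteinase genes. *Amelx* spans chrX:169176114-169187209 on the minus strand and lies inside *Arhgap6*, a gene for a GTPase-activating protein on the plus strand, with 0 exon bases shared between them. *Mmp20* overlaps the antisense gene *AV064505* in span, again with 0 exon bases shared, so no member shares exon sequence with a gene on either strand. The longest annotated transcripts have 7 exons for *Amelx*, 11 for *Ambn*, 10 for *Enam* and 10 for *Mmp20*.

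The bases just before each start site are shown because the 4 genes moved together in CLT and their promoters can be read side by side. The sequences are from RefSeq (build GRCm38.p6), the 200 bases before the start, 5′ to 3′ on the strand of the gene. Capitals mark the letters CCAAT and TATAA on either strand (read as ATTGG and TTATA on the other strand), the core of the CCAAT box bound by NF-Y and the core of a TATA box. They are chrX:169187210-169187409 (minus strand), chr5:88455791-88455990 (plus), chr5:88487775-88487974 (plus) and chr9:7628031-7628230 (plus).
Amelx: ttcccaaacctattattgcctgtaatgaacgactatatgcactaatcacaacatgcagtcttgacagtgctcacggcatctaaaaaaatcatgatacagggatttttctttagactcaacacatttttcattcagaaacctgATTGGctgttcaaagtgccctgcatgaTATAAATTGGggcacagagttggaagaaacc
Ambn: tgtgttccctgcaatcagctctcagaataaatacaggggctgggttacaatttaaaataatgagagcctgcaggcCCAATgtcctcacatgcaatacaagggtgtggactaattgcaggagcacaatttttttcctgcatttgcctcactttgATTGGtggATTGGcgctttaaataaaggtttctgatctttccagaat
Enam: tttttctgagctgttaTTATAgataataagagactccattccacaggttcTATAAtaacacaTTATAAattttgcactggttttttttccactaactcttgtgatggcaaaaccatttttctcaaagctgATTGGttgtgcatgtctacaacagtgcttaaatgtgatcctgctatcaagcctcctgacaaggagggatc
Mmp20: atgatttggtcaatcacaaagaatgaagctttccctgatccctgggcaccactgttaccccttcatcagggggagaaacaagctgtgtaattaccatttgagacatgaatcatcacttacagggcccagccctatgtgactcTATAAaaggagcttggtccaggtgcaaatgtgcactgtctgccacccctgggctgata

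An ATTGG lay between 35 and 70 bases before the start in *Amelx*, *Ambn* and *Enam*, and in each of these 3 genes 1 such match was part of the longer run TGATTGG. Its first base lay 60 bases before the start in *Amelx*, 49 in *Ambn* and 72 in *Enam*. Within 250 bases before the start, CCAAT on either strand was found in 3 of the 4 genes and in 33.8% of 32851 mouse promoters, and TGATTGG (which contains it) in the same 3 genes and in 7.23% of promoters. TATAA on either strand was found in *Amelx*, *Enam* and *Mmp20*, as in 22.8% of promoters, with its first base 31 bases before the start in *Amelx* and 58 in *Mmp20*. Of the other letters searched, TAATTA, a homeodomain core, was found in *Mmp20* (4.84% of promoters), and TAATTG in *Ambn* (7.17%). TGTGGT, the core of a Runx site (14.0% of promoters), and TTGCGCAA, a C/EBP site (0.164%), were found in 0 of the 4. All were searched on both strands, and the motifs were chosen after the sequences had been seen. These are matches of letters and not sites at which a factor was measured.

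By RPKM, *Amelx* was the most abundant transcript of all in both regions of Ctrl incisors. It was at 10173 and 9794 RPKM in Ctrl CLH, at 9733 and 11044 in *Med1* cKO CLH, at 48798.5 and 18601.5 in Ctrl CLT and at 6.57 and 3.68 in *Med1* cKO CLT. It ranked 1 of 23358 gene rows in the 6 libraries other than *Med1* cKO CLT, and 7947 and 9892 there. The tissue named for its stem cells was thus already rich in enamel matrix transcripts, while *Med1* cKO CLT stood below every other library.

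*Ambn*, the partner of amelogenin in the matrix, was at 2821 and 2334 RPKM in Ctrl CLH, at 3309 and 2831 in *Med1* cKO CLH, at 28838 and 10887 in Ctrl CLT and at 3.45 and 1.78 in *Med1* cKO CLT. It ranked 2 or 3 in the 6 libraries other than *Med1* cKO CLT. The Ctrl CLT libraries lay above all CLH libraries and the *Med1* cKO CLT libraries below them.

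*Enam*, which codes for the largest of the enamel matrix proteins, was at 400 and 300.4 RPKM in Ctrl CLH, at 519 and 363 in *Med1* cKO CLH, at 1309 and 684 in Ctrl CLT and at 0.234 and 0.0935 in *Med1* cKO CLT. *Mmp20*, the protease gene, was at 64.6 and 48.7 RPKM in Ctrl CLH, at 85.3 and 60.3 in *Med1* cKO CLH, at 152 and 96.5 in Ctrl CLT and at 0.348 and 0.280 in *Med1* cKO CLT. Both followed the order of groups seen for the other 2 genes, with Ctrl CLT above CLH and *Med1* cKO CLT far below.

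**Figure D1:**
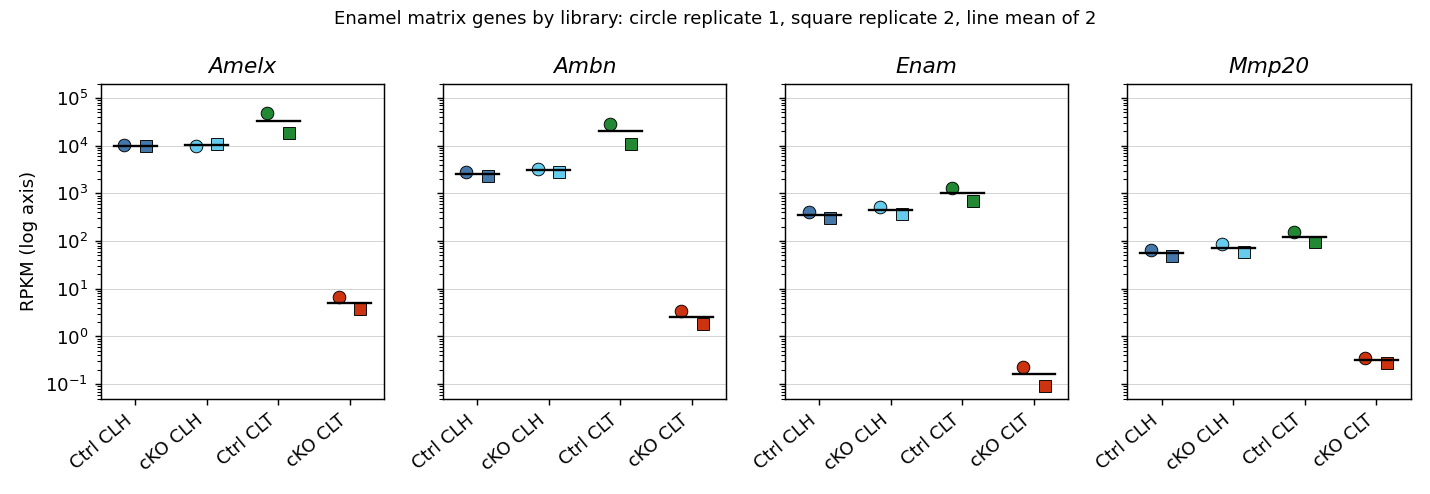
RPKM (log axis) of the 4 enamel matrix genes in each of the 8 libraries, with circles for replicate 1, squares for replicate 2 and lines for the mean of the 2 libraries. The *Med1* cKO CLT points lie at or below 6.57 RPKM in all 4 panels, and no point of another group is below 48.7.

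Per length, the order of the genes was *Amelx*, *Ambn*, *Enam* and *Mmp20* in all CLH and Ctrl CLT libraries. In *Med1* cKO CLT the order of *Enam* and *Mmp20* was turned. The exact Poisson 95% interval of the RPKM there was 0.164 to 0.324 for *Enam* and 0.238 to 0.492 for *Mmp20* in replicate 1, which overlap, and 0.0511 to 0.157 and 0.181 to 0.413 in replicate 2, which do not. Such intervals cover counting error only. Among the groups, the order for every gene was *Med1* cKO CLT, Ctrl CLH, *Med1* cKO CLH and Ctrl CLT by the mean, and the CLH groups overlapped for *Amelx*, *Enam* and *Mmp20* and were next to each other for *Ambn* (2821 and 2831 RPKM at the inner edges).

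Together the 4 genes took 10.8% and 4.22% of all reads in Ctrl CLT, between 1.56% and 1.87% in the 4 CLH libraries, and 0.00152% and 0.000829% in *Med1* cKO CLT. The residue in *Med1* cKO CLT was small but not 0. It was 178 and 97 reads for *Amelx*, 179 and 90 for *Ambn*, 36 and 14 for *Enam* and 32 and 25 for *Mmp20*, compared with 1380618 and 478320 reads for *Amelx* in Ctrl CLT. Each member had at least 14 reads in both *Med1* cKO CLT libraries, so the folds below are ratios of counted reads. Whether these few reads came from the tissue itself was not tested.

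The first comparison asks what loss of *Med1* from the epithelium did to enamel matrix transcripts in the progenies. All 4 genes fell in *Med1* cKO CLT. By the ratio of the group means, *Amelx* was 6580-fold lower (33700.0 ± 21353 RPKM in Ctrl and 5.12 ± 2.04 in *Med1* cKO, mean ± SD, n = 2 each), *Ambn* 7597-fold lower, *Enam* 6088-fold lower and *Mmp20* 396-fold lower. Taking the library pairs that lie nearest to each other, the folds were still 2833 for *Amelx*, 3158 for *Ambn*, 2926 for *Enam* and 277 for *Mmp20*. On the scale of log2(RPKM + 1), limma gave a change of -12.31 (SE 0.57) for *Amelx*, -12.30 (SE 0.57) for *Ambn*, -9.67 (SE 0.36) for *Enam* and -6.54 (SE 0.27) for *Mmp20*, with adjusted p of 0.020, 0.020, 0.018 and 0.020. This scale understates the change of *Enam* and *Mmp20*, whose *Med1* cKO values are under 1 RPKM.

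All 4 of 4 genes were called lower, compared with 1.68% of the 14148 genes tested (0.0777% were called higher). Their changes were the 3 lowest and the 12th lowest of all genes tested, where the median of all genes was -0.01. A fall on the log2 scale used is bounded by the level in Ctrl CLT, so these ranks partly reflect how abundant the members were. Both *Med1* cKO CLT libraries were below both Ctrl CLT libraries for all 4, as for 35.1% of genes. The calls rest on the spread of 2 against 2 libraries. They were lost without the filter on low values (adjusted p from 0.078 to 0.084) and in a voom fit of the recovered reads (adjusted p 0.057 for all 4, with a change of -12.60 for *Enam* and -8.57 for *Mmp20*), while the direction stayed. With 2 libraries on each side, the smallest p of an exact permutation test is 0.333.

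Because bulk tissue was measured, fewer ameloblasts and less RNA per ameloblast cannot be told apart. Epithelium as such was present in *Med1* cKO CLT. The basal epithelial keratin *Krt14* was at 558 and 649 RPKM in *Med1* cKO CLT and at 543 and 275 in Ctrl CLT. Of all genes tested 0.0777% were called higher and 1.68% lower, and of 7 markers of dental and other epithelium 0 were called higher and 1 lower. Their median log2 change was 0.64, and 0.88 without Ctrl CLT replicate 1. Set against *Krt14* within the same library, the level of *Amelx* was 89.9 and 67.5 times that of *Krt14* in Ctrl CLT and 0.0118 and 0.00567 times that in *Med1* cKO CLT. *Krt14* is also made by the basal layers of skin and hair follicles.

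Transcripts of other cells moved in the same comparison, in which 1.68% of all genes tested were called lower. The summed RPKM of 4 bone genes was 542 and 536 in Ctrl CLT and 0.873 and 0.688 in *Med1* cKO CLT, with 2 of 3 tested called lower and *Ibsp* at 0 in both *Med1* cKO CLT libraries. Of 6 odontoblast genes 3 were called lower, among them *Dspp* (543 and 644 against 0.145 and 0.174 RPKM). In the other direction, the 5 hair keratins summed to 7897 and 8679 RPKM in *Med1* cKO CLT, the 5 epidermis genes (4 of them in the table) to 659 and 670, the 5 melanocyte genes to 394 and 396, and the 6 skeletal muscle genes to 1807 and 1987. In Ctrl CLT replicate 2 these sums were 9.80, 3.69, 9.89 and 49.7, and 0 of the 20 genes tested of these 4 lists were called. Their log2 changes were between 1.91 (*Mitf*) and 6.22 (*Krt71*) with all libraries. Without Ctrl CLT replicate 1 they were between 2.34 and 10.75 for the same 2 genes, where the median of all genes was -0.08. No defining marker of hair, epidermis, melanocytes or muscle was at 0 in *Med1* cKO CLT. The part of these other tissues in the fall of the enamel matrix genes was not tested. Without Ctrl CLT replicate 1, the members' changes were between -11.61 and -6.21, and without Ctrl CLT replicate 2 between -13.00 and -6.87. All 4 were called lower in both fits, but so were 38.1% of all genes in the first and 23% in the second, since the spread came from the *Med1* cKO CLT libraries alone. These fits therefore bear on the size of the change and not on the calls.

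**Figure D2:**
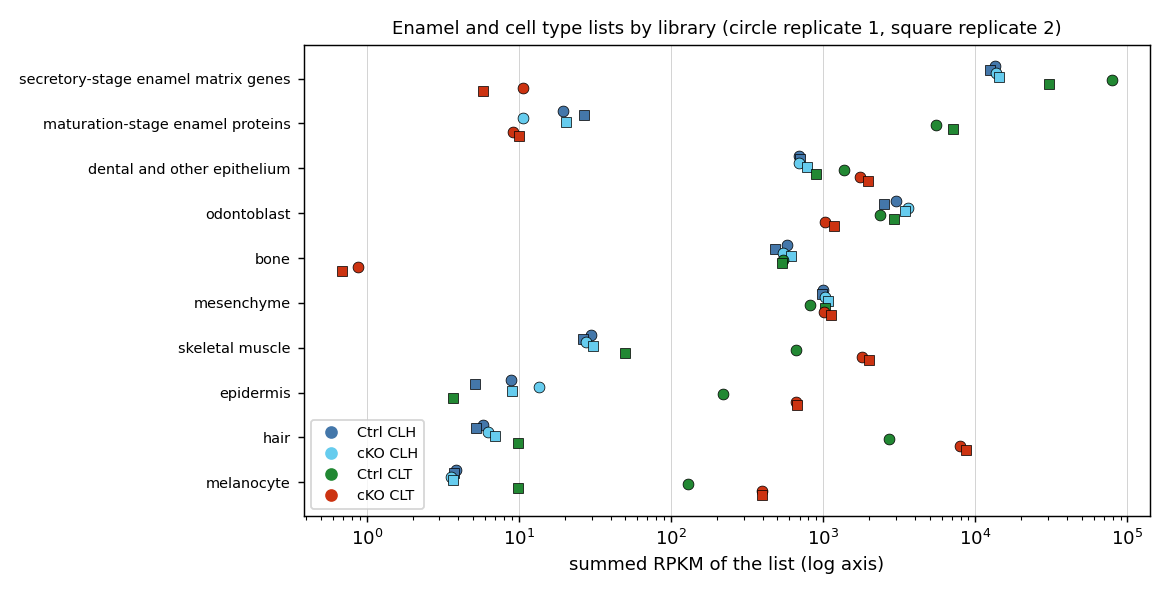
Summed RPKM (log axis) of the enamel lists and of marker lists of other cell types, 1 point per library. In *Med1* cKO CLT (red) the enamel matrix, odontoblast and bone lists lie below the other groups and the hair, epidermis, melanocyte and muscle lists above them, and Ctrl CLT replicate 1 (green circle) lies between on those last 4 lists.

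In CLH the mean RPKM in *Med1* cKO was 1.04 times that in Ctrl for *Amelx*, 1.19 times for *Ambn*, 1.26 times for *Enam* and 1.29 times for *Mmp20*. *Amelx* differed by 0.05 (SE 0.41) on the log2 scale between *Med1* cKO CLH and Ctrl CLH, *Ambn* by 0.25 (SE 0.22), *Enam* by 0.32 (SE 0.23) and *Mmp20* by 0.35 (SE 0.22), and 0 of 4 were called (limma adjusted p from 0.73 to 0.98). The background was 0% called of 14148 genes, with 1027 at an unadjusted limma p under 0.05. By voom, too, 0 genes were called after adjustment. The groups overlapped for *Amelx*, *Enam* and *Mmp20*. For *Ambn* both *Med1* cKO CLH libraries were above both Ctrl CLH libraries, as for 19.9% of genes, and the nearest libraries of the groups were at 2831 and 2821 RPKM. The sign for *Amelx* turned to -0.036 without *Med1* cKO CLH replicate 2, so it has no direction in CLH.

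The effect of the cKO differed between the tissues. The change in CLT minus the change in CLH was -12.36 (SE 0.64) for *Amelx*, -12.55 (SE 0.65) for *Ambn*, -10.00 (SE 0.47) for *Enam* and -6.89 (SE 0.38) for *Mmp20* in a limma fit over all 8 libraries, with adjusted p between 0.00051 and 0.00073. All 4 were called lower, against 9.58% of genes. These calls were kept in all 14 alternatives, the fits without 1 library included.

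Within *Med1* cKO mice, CLT was far below CLH. The mean RPKM was 2028-fold lower in CLT for *Amelx*, 1174-fold for *Ambn*, 2695-fold for *Enam* and 232-fold for *Mmp20*. The log2 changes were -10.77 (SE 0.20), -9.77 (SE 0.20), -8.55 (SE 0.16) and -5.79 (SE 0.15), with limma adjusted p between 1.3e-09 and 9.6e-09. All 4 were called lower, but so were 45.1% of all genes tested, and the median of all genes was -0.18. The members were the 2 lowest, the 5th and the 14th lowest changes. Read beside this background, the call does not set the members apart. On the log2 scale used, a fall is also bounded by the level in *Med1* cKO CLH. *Ibsp*, at 111 and 86.5 RPKM there and at 0 in both *Med1* cKO CLT libraries, changed by only -6.63. The ranks by size therefore partly reflect how abundant the members were in CLH.

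Within Ctrl mice the direction was the opposite. The mean RPKM in CLT was 3.38-fold that in CLH for *Amelx*, 7.71-fold for *Ambn*, 2.85-fold for *Enam* and 2.20-fold for *Mmp20*. On the log2 scale these were 1.59 (SE 0.52), 2.79 (SE 0.53), 1.45 (SE 0.38) and 1.10 (SE 0.29), and 0 of 4 were called (limma adjusted p from 0.31 to 0.37), where 1 gene, *Klk4*, was called in all (0.00707% of genes called higher). Both Ctrl CLT libraries were above both Ctrl CLH libraries for all 4 genes, compared with 15.2% of all genes, and the median of all genes was -0.13. The calls depended on the spread within Ctrl CLT. All 4 were called without Ctrl CLT replicate 2 (log2 changes 2.29, 3.49, 1.91 and 1.42, adjusted p from 0.0081 to 0.022), a fit whose spread came from the Ctrl CLH libraries alone and in which 18.4% of all genes were called higher, and *Ambn* alone when all 8 libraries were fitted together (adjusted p = 0.030). Without Ctrl CLT replicate 1, the library that stood apart, 0 were called (1.91% of all genes were called higher) and the log2 changes were 0.90 for *Amelx*, 2.08 for *Ambn*, 0.98 for *Enam* and 0.77 for *Mmp20*. Set against *Krt14*, *Amelx* was 51.9 and 55.1 times *Krt14* in Ctrl CLH and 89.9 and 67.5 times in Ctrl CLT, and *Ambn* 14.4 and 13.1 times against 53.1 and 39.5. *Mmp20* was 0.329 and 0.274 times *Krt14* in Ctrl CLH and 0.280 and 0.350 times in Ctrl CLT, so on this footing its groups overlapped.

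**Figure D3:**
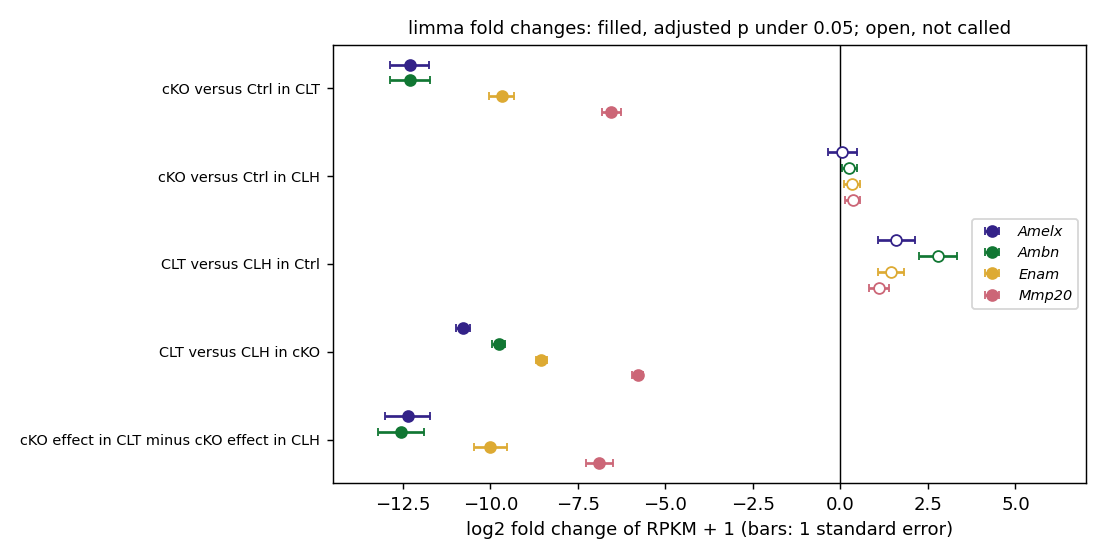
log2 fold changes of RPKM + 1 with 1 standard error for the 4 enamel matrix genes in the 5 comparisons, filled where the limma adjusted p was under 0.05. The *Med1* cKO CLT contrasts lie between -12.55 and -5.79, the CLH contrasts between 0.05 and 0.35 and the Ctrl CLT over Ctrl CLH contrasts between 1.10 and 2.79.

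The 4 genes did not keep a fixed proportion to each other. In CLH, *Amelx* was 3.61 and 4.20 times *Ambn* in Ctrl and 2.94 and 3.90 times in *Med1* cKO. In CLT this ratio was lower, at 1.69 and 1.71 in Ctrl and at 1.90 and 2.06 in *Med1* cKO. The 2 Ctrl CLT libraries, which differed by 2.62 times in *Amelx* and 2.65 times in *Ambn*, thus had almost the same ratio of the 2 genes. The log2 ratio was 1.19 lower in Ctrl CLT than in Ctrl CLH, a difference that the exact permutation test over 2 against 2 libraries gives its smallest p of 0.333.

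*Mmp20* was the member whose proportion moved most in *Med1* cKO CLT. *Amelx* was 321 and 193 times *Mmp20* in Ctrl CLT and 18.8 and 13.1 times in *Med1* cKO CLT. *Ambn* was 190 and 113 times *Mmp20* in Ctrl CLT and 9.89 and 6.37 times in *Med1* cKO CLT. The log2 ratios to *Mmp20* dropped by 3.98 for *Amelx*, by 4.20 for *Ambn* and by 4.04 for *Enam*, in each case with separate groups (exact permutation p = 0.333). By contrast the ratio of *Amelx* to *Enam* overlapped between Ctrl CLT (37.3 and 27.2) and *Med1* cKO CLT (28.1 and 39.3), as did that of *Ambn* to *Enam*. The *Mmp20* values in *Med1* cKO CLT rest on 32 and 25 reads. In CLH the ratio of *Enam* to *Mmp20* was between 6.01 and 6.19 in all 4 libraries, while *Enam* itself ranged from 300.4 to 519 RPKM.

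**Figure D4:**
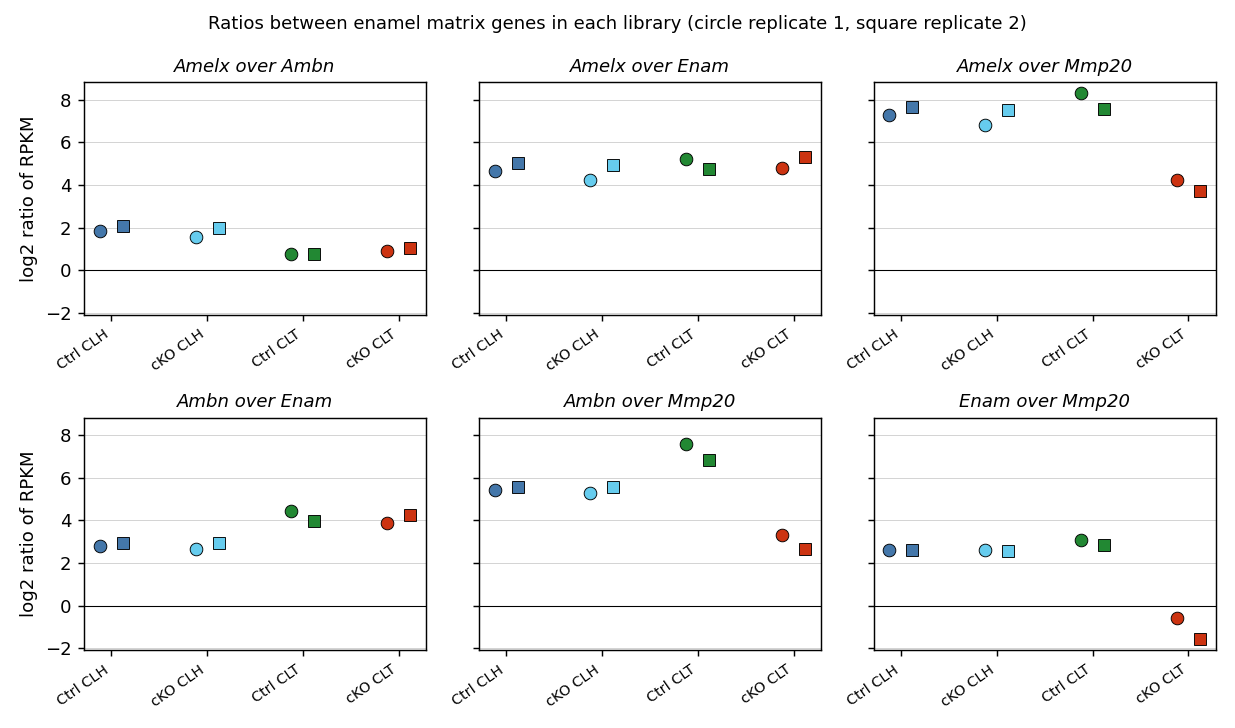
log2 ratios of RPKM between pairs of the enamel matrix genes in each library (circles replicate 1, squares replicate 2). The ratios to *Mmp20* are lower by 3.98 to 4.20 in *Med1* cKO CLT than in Ctrl CLT, whereas the ratios of *Amelx* and *Ambn* to *Enam* overlap between these groups.

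Across the 8 libraries the members had nearly the same profile of log2(RPKM + 1), with Pearson r between 0.994 and 0.9996. The 8 libraries come from 4 groups and r rests largely on the 2 *Med1* cKO CLT libraries, so it is a description. For *Enam* the gene of highest r among all tested was *Mmp20*, and for *Mmp20* it was *Enam*. Outside the members, the 10 genes nearest to the mean profile were *Dlg2*, *Dock1*, *Mtmr11*, *Rnf122*, *Tusc3*, *Elmo1*, *Susd5*, *Papss2*, *Itpr1* and *Tacc1*, with r from 0.996 to 0.998. The size of a change does not enter r, and these genes differed in it. *Dock1* was at 12.9 and 12.4 RPKM in Ctrl CLT and still at 8.77 and 8.48 in *Med1* cKO CLT. *Susd5* was at 23.6 and 21.2 RPKM in Ctrl CLH, at 41.7 and 24.2 RPKM in Ctrl CLT and at 0.203 and 0.180 RPKM in *Med1* cKO CLT. *Itpr1*, which codes for an endoplasmic reticulum calcium channel, was at 25.2 and 15.8 RPKM in Ctrl CLT and at 1.62 and 1.78 in *Med1* cKO CLT. *Papss2*, which makes the sulfate donor for sulfated matrix, was at 19.3 and 15.4 RPKM against 2.46 and 2.34. Per member, the 3 genes of highest r came from the same 10, except *Ildr2* for *Ambn* (r = 0.996).

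The maturation-stage genes were low in CLH and, like the members, fell in *Med1* cKO CLT. *Klk4* was at 0.886 to 1.65 RPKM in the 4 CLH libraries, at 187 and 206 in Ctrl CLT and at 0.231 and 0.119 in *Med1* cKO CLT. *Amtn* was at 5.48 to 19.3 RPKM in CLH, at 4429 and 3246 in Ctrl CLT and at 6.88 and 8.72 in *Med1* cKO CLT. *Odam* was at 4.21 to 5.91 RPKM in CLH, at 871 and 3671 in Ctrl CLT and at 2.01 and 1.14 in *Med1* cKO CLT. All 3 were called lower in *Med1* cKO CLT, against 1.68% of all genes tested. Their log2 changes were -7.39, -8.76 and -9.46 (limma adjusted p 0.0049, 0.0077 and 0.037). Between Ctrl CLT and Ctrl CLH, *Klk4* rose by 6.27 (adjusted p = 0.021), and *Amtn* (7.77, adjusted p = 0.050) and *Odam* (8.22, adjusted p = 0.22) were not called. The members were thus abundant in both regions of Ctrl tissue, and the maturation-stage genes in CLT. Without Ctrl CLT replicate 1, the changes of the 3 maturation-stage genes were -7.46, -8.54 and -10.50 from Ctrl CLT to *Med1* cKO CLT. From Ctrl CLH to Ctrl CLT they were 6.34, 7.55 and 9.26. Between the Ctrl CLT libraries, replicate 1 was 2.62 times replicate 2 for *Amelx*, 1.58 times for *Mmp20* and 1.36 times for *Amtn*. Replicate 2 was 1.10 times replicate 1 for *Klk4* and 4.21 times for *Odam*, so the maturation-stage genes did not differ between these libraries in a common direction.

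Over all genes tested, 1.68% were called lower in CLT. Of 20 further genes whose loss is known to disturb enamel, 19 were tested. In CLT 7 were called lower, 0 higher and 12 not called, with a median log2 change of -1.96. *Fam20c*, the kinase that phosphorylates secreted enamel matrix proteins, had the lowest value of the list, at 45.0 and 25.3 RPKM in Ctrl CLT and at 1.26 and 1.25 in *Med1* cKO CLT (log2 change -3.95, limma adjusted p = 0.037). *Fam20a*, its partner, and the calcium exchanger gene *Slc24a4* also fell (-3.12 and -3.55). The integrin gene *Itgb6* was also among those called lower (-1.96). The highest value was that of *Fam83h*, which brings casein kinase to keratin filaments (1.94, adjusted p = 0.096). With Ctrl CLT replicate 1 left out, the median log2 change of the list was -2.06. In CLH 0 of the 19 were called, where 0% of all genes tested were called. The lowest log2 change of the list was above that of every member. On the scale of log2(RPKM + 1), however, a fall is bounded by the level in Ctrl. *Wdr72*, at 3.86 and 10.7 RPKM in Ctrl CLT and at 0 in both *Med1* cKO CLT libraries, changed by -2.92. The sizes therefore do not rank the list against the more abundant members.

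Beside the 1.68% of all genes called lower in CLT stand 17 transcription factors that have been reported to act at enamel gene promoters. Of these, 3 were called lower in CLT, 0 higher and 14 not called (median -0.41). Among them were the chromatin organizer *Satb1* (27.1 and 34.9 RPKM in Ctrl CLT against 1.62 and 1.67 in *Med1* cKO CLT, log2 change -3.58, limma adjusted p = 0.022) and the homeobox gene *Dlx2* (-1.39, adjusted p = 0.046). The highest value was that of *Cebpa* (2.48, adjusted p = 0.12), at 31.0 and 31.0 RPKM in *Med1* cKO CLT. The genes for the NF-Y subunits, which bind the CCAAT box, were among the 14 not called, with *Nfya* at 9.76 and 9.47 RPKM in Ctrl CLT and at 14.6 and 14.2 in *Med1* cKO CLT (named after its values were seen, log2 change 0.54, adjusted p = 0.095). In the fit without Ctrl CLT replicate 1, the median log2 change of the 17 was -0.73, with *Cebpa* at 3.65 and *Nfya* at 0.56.

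The enamel matrix genes *Amelx*, *Ambn* and *Enam* belong to the family of secretory calcium-binding phosphoproteins, which also holds genes of dentin, bone, milk and saliva. Over all genes tested, 1.68% were called lower in CLT. Of 11 genes outside enamel that were listed with this family, 7 were tested. In CLT 3 were called lower, 0 higher and 4 not called. The 3 called lower were the dentin and bone genes *Dspp* (log2 change -9.0, limma adjusted p = 0.0049), *Dmp1* (-4.06, adjusted p = 0.020) and *Spp1* (-5.89, adjusted p = 0.049). *Sparc*, listed as a gene related to the family, was at 1149 and 1262 RPKM in Ctrl CLT and at 959 and 958 in *Med1* cKO CLT. It had the highest value of the list (-0.33, adjusted p = 0.26). The median log2 change of the 7 was -4.15 without Ctrl CLT replicate 1. Of 9 metalloproteinase genes next to *Mmp20*, 4 were tested and 0 called in CLT. Their extremes were *Mmp13*, a collagenase of bone and odontoblasts, at 31.8 and 232 RPKM against 0.160 and 0.137 (-6.25, adjusted p = 0.064), and *Mmp3* (2.05, adjusted p = 0.082). Of 4 metalloproteinase genes elsewhere, *Mmp9* was called lower (-3.42, adjusted p = 0.042) and *Mmp11* had the highest value (-1.0, adjusted p = 0.064). Without Ctrl CLT replicate 1, *Mmp13* changed by -7.66, *Mmp3* by 2.68, *Mmp9* by -3.80 and *Mmp11* by -1.03.

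Secreted matrix passes through the endoplasmic reticulum and Golgi in coated vesicles. Of all genes tested, 1.68% were called lower in CLT and 0.0777% higher. Of 10 genes of the secretory pathway, 0 were called, which at these shares does not set the list apart. Their median log2 change was -0.42. The lowest was the coat protein gene *Sec24d*, at 13.5 and 15.4 RPKM in Ctrl CLT and at 8.20 and 7.96 in *Med1* cKO CLT (-0.76, limma adjusted p = 0.076), and the highest the coat GTPase gene *Sar1b* (0.18, adjusted p = 0.38). When Ctrl CLT replicate 1 was left out, the median log2 change of the 10 was -0.59. Cells of other types also use these genes.

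In CLT 1.68% of all genes tested were called lower and 0.0777% higher, so few calls are to be looked for among the few genes next to a member. Of those tested, *Amtn* was the only one called. It precedes *Ambn* on chromosome 5. The next tested gene after *Enam*, the ribosome assembly gene *Utp3*, was at 23.6 and 23.6 RPKM in Ctrl CLT and at 27.6 and 26.1 in *Med1* cKO CLT (0.18, limma adjusted p = 0.38). Next to *Mmp20*, *Mmp27* was at 1.05 and 0 RPKM in Ctrl CLT and at 3.23 and 3.28 in *Med1* cKO CLT (1.57, adjusted p = 0.091), and *Tmem123* was at 20.2 and 33.9 RPKM against 42.8 and 37.6 (0.60, adjusted p = 0.22). *Arhgap6*, in which *Amelx* lies, was between 0.577 and 1.94 RPKM in all libraries and did not pass the filter. The nearest tested genes on either side of *Amelx* were *Msl3* (0.02, adjusted p = 0.96) and *Hccs* (-0.60, adjusted p = 0.23). Without Ctrl CLT replicate 1, the changes were 2.09 for *Mmp27*, -0.96 for *Hccs*, 0.18 for *Utp3* and 0.24 for *Tmem123*, and *Msl3* turned to -0.19.

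**Figure D5:**
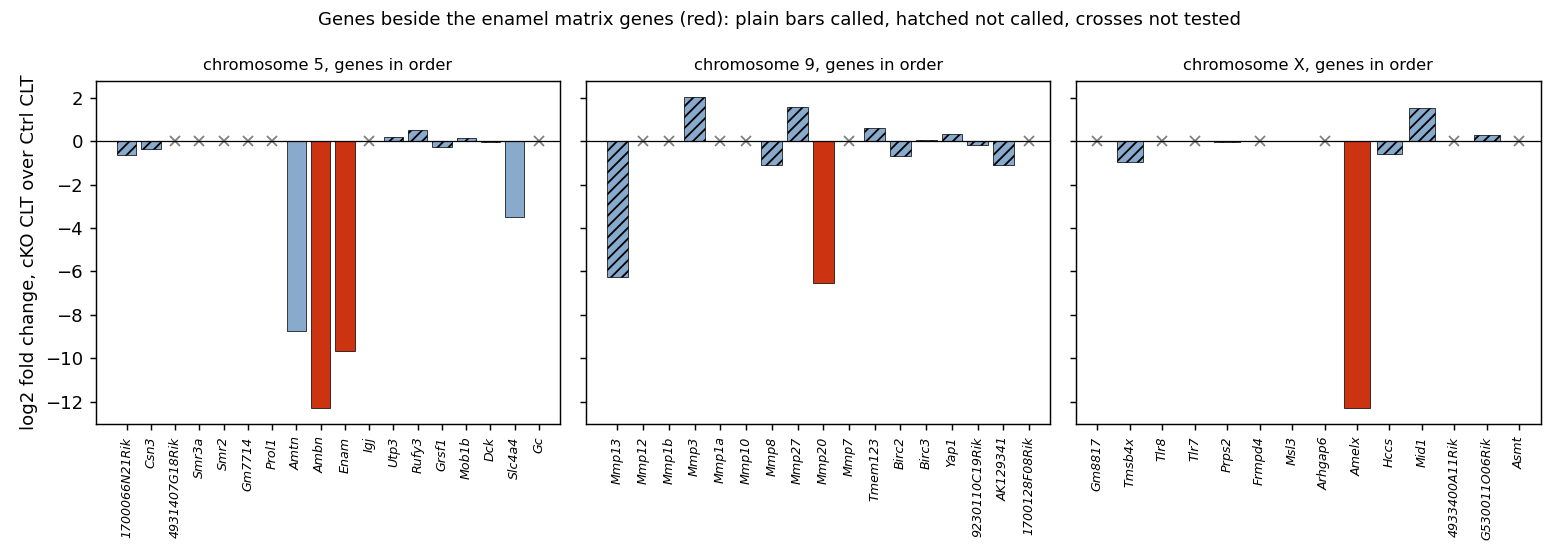
log2 fold change of RPKM + 1 between *Med1* cKO CLT and Ctrl CLT for the genes around *Ambn* and *Enam*, *Mmp20* and *Amelx* (red), in chromosomal order, with crosses for genes that did not pass the filter. The bars of the members lie between -12.31 and -6.54, and of the other genes shown *Amtn* (-8.76) and *Slc4a4* (-3.49) were called.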

How the data were processed

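RNA-seq of CLH and CLT tissue from *Med1* cKO and Ctrl mice was used, with 2 libraries per group named as in the sample labels. Per the submitters' processing notes and the study's methods, the authors checked reads with FastQC 0.72, trimmed them with Trim Galore 0.4.3.1, aligned them to mm10 with STAR 2.6.0b-1 and counted them per gene with featureCounts 1.6.3, and their notes also name DESeq2 2.11.40.2. The authors deposited 1 table of RPKM values with a length for each gene. The annotation, the strand setting and the total behind the RPKM are not given in the sources used here. Multiplied by gene length, 100.0% of 60896 low values were whole multiples of 1 read (within 0.01), which gave library totals and reads per gene. The number of columns left unused was 0.

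Genes that reached an RPKM of 1 in 2 or more of the 8 libraries (14148 genes) were kept, and their log2(RPKM + 1) was fitted with limma 3.58.1 (lmFit, and eBayes with trend) under R 4.3.3, within the 4 libraries compared, with Benjamini-Hochberg adjustment over all genes tested and a threshold of 0.05. An interaction term over all 8 libraries compared the cKO effects of CLT and CLH. Voom on the recovered reads served as an alternative, because the deposited values are not counts. Other alternatives were a pseudocount of 0.1, no filter, median-of-ratios scaling, library totals without the 4 genes, all 8 libraries in 1 fit, a replicate block and each library left out. The fit was tested on simulated data. Ratios between genes were compared with a 2-sided exact permutation test. Poisson intervals are exact, at 95%.

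The 4 genes, the gene lists and the tests were chosen with earlier results of these data known. Named one by one were the 4 genes, *Med1*, *Arhgap6* and the tested genes next to a member, each list's called genes and extremes (up to 4 genes), and the genes of most similar profile. Some called genes of these lists are counted but not reported here by name. Marker lists and motifs served as descriptions. Promoters are those of RefSeq (GRCm38.p6), where all 4 genes were matched, and exons those of GENCODE M21. Sequences were read and intervals computed with Python 3.11.15, pandas 2.3.3 and SciPy 1.17.1. The replicates come from pooled animals and p-values measure the spread between these samples. Microarray and ChIP-seq data were not used here.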

Additional observations from a re-analysis of the deposited data

Results flagged for a closer look

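The effect of the cKO on all 4 enamel matrix genes differed between the tissues by the test of the difference itself. On the log2(RPKM + 1) scale, the change in CLT minus the change in CLH was -12.36 for *Amelx*, -12.55 for *Ambn*, -10.00 for *Enam* and -6.89 for *Mmp20* (limma over 8 libraries, adjusted p 0.00059, 0.00059, 0.00051 and 0.00073). By this test, which shares 1 estimate of the spread over the 4 groups although Ctrl CLT varied most, 9.58% of all genes tested were called lower. For each of the 4 genes both *Med1* cKO CLT libraries were below both Ctrl CLT libraries, as for 35.1% of all genes tested. The CLH groups overlapped or lay side by side.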

How the results depend on the processing

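With 2 libraries in a group the spread is poorly known, and the calls in CLT depend on it. Without the filter on low values 0 of the 4 genes were called (log2 changes -12.31, -12.30, -9.67 and -6.54 for *Amelx*, *Ambn*, *Enam* and *Mmp20*, adjusted p from 0.078 to 0.084), and by voom 0 of 4 (-12.57, -12.79, -12.60 and -8.57, adjusted p 0.057). All 4 were called in the other fits but 1, and the direction was the same in all 12 alternatives. Over the fits that leave out 1 library, the change was from -13.00 to -11.61 for *Amelx*, -13.00 to -11.60 for *Ambn*, -10.14 to -9.20 for *Enam* and -6.87 to -6.21 for *Mmp20*, called in 4 of 4 fits for each. A fit without 1 library takes its spread from the other group alone. The gene lists without Ctrl CLT replicate 1 were an alternative chosen after seeing the data.

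In CLH the members stayed uncalled in all 11 alternatives. The log2 change of *Amelx* turned to -0.036 without cKO CLH replicate 2, and the fits that leave out 1 library ranged from -0.036 to 0.15 for it. Between Ctrl CLT and Ctrl CLH, the fit over all 8 libraries called 1 member (*Ambn*, 2.79, adjusted p = 0.030), and the fit without Ctrl CLT replicate 2 called 4. The fits that leave out 1 library ranged there from 0.90 to 2.29 for *Amelx*, 2.08 to 3.49 for *Ambn*, 0.98 to 1.91 for *Enam* and 0.77 to 1.42 for *Mmp20*, and from 0 to 4 members called. The calls between CLT and CLH in *Med1* cKO (11 alternatives) and of the difference of effects (14) were the same throughout. The cause of these shifts was not tested.

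Counts over all genes moved more. In CLT, 11 genes were called higher and 237 lower, against 0 and 3 without the filter, 0 and 18 by voom, 18 and 448 with totals that leave out the members, and 3352 and 2831 with all 8 libraries in 1 fit. They were 4445 and 5393 without Ctrl CLT replicate 1, 4121 and 3248 without Ctrl CLT replicate 2, and 0 and 11 without either *Med1* cKO CLT library. Between CLT and CLH in *Med1* cKO, 4084 were called higher and 6384 lower, against 5281 and 4896 with median-of-ratios scaling.

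The replicate numbers of the labels were not taken as pairs. The correlation of the deviations of same-numbered libraries was 0.066 between the CLH groups, -0.19 between the CLT groups, 0.20 between the Ctrl groups and 0.31 between the *Med1* cKO groups, and with 2 libraries a group it rests on 1 deviation each. With the numbers as a replicate block, 4 of 4 members were called in CLT (*Amelx* -12.31, adjusted p = 6.9e-05), with 888 genes higher and 856 lower. No call of a member changed under the block, and between CLT and CLH it gave 5 genes higher and 0 lower in Ctrl and 4485 and 6956 in *Med1* cKO. With the numbers crossed, an alternative chosen after seeing the data, 2 of 4 members (*Amelx* at -12.31 and *Ambn* at -12.30 not called), 0 genes higher and 9 lower were called in CLT.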

Other observations

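*Enam* and *Mmp20* kept almost the same ratio in the 4 CLH libraries. *Enam* was 6.19 and 6.17 times *Mmp20* in Ctrl CLH and 6.09 and 6.01 times in *Med1* cKO CLH, whereas in the same libraries the ratio of *Amelx* to *Mmp20* ran from 114 to 201. In Ctrl CLT *Enam* was 8.6 and 7.09 times *Mmp20*.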
